A study of Mus musculus with 18 samples.

Results

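The difference between retina and brain in how strongly each transcript was enriched by a ribosome pull-down was measured in 12 of the 18 libraries of a mouse study of vascular beds of the central nervous system. For each gene the quantity was (retina positive minus retina input) minus (brain positive minus brain input) on the log2 scale. It was tested in the 11618 genes listed for both tissues, out of 12369 listed for retina and 12919 for brain. A value above 0 means that the pull-down raised a transcript over its own tissue lysate more in retina than in brain. Each difference is the sum of a positive part (retina positive against brain positive) and the reversed sign of an input part (retina input against brain input), so a difference can arise without any change in the pulled-down RNA.

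All mice carried Tie2-cre and NuTRAP, with no other treatment given in the labels, which also give no age or sex. The count columns of every library also carry the suffix WT. NuTRAP is a Cre-switched allele that labels ribosomes with a GFP-tagged Rpl10a protein. The Tie2 promoter drives Cre mainly in endothelium, and recombination in blood-lineage cells is also known. The libraries formed 4 groups of 3, namely retina input, retina positive, brain input and brain positive, numbered 421, 953 and 960 in each. A retinal sample pooled 2 retinae and a brain sample was 0.5 of a brain, both lysates were cleared at 12000 g, 150 µl was kept as input, and the rest went into the anti-GFP pull-down that gave the positive fraction. An input therefore holds RNA of every cell type of the lysate. A positive fraction is enriched for RNA on tagged ribosomes and can keep some untagged RNA.

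Endothelium of both tissues forms a blood-neural barrier, with sealed junctions, few caveolae, dedicated transporters and a Wnt/beta-catenin programme that maintains it. The surrounding cells differ. Brain holds many myelinating oligodendrocytes, which the mouse retina lacks, while retina holds photoreceptors and Müller glia, the radial glia that span it. Because the denominator of an enrichment is the whole lysate, a gene that a vessel cell shares with an abundant neighbour can give a different ratio in each tissue at a similar level in the pull-down. In these bulk lysates fewer cells of a type and less RNA per cell cannot be told apart.

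The total of listed reads was 15243098 to 21521130 in retina inputs, 6260958 to 11071373 in retina positives, 9596740 to 32064355 in brain inputs and 18618427 to 28277853 in brain positives. The tissue labels matched their markers: the rod protein gene Rom1 had 2736, 2725 and 2575 CPM (counts scaled to library size) in retina inputs and 9.85, 8.92 and 11 in brain inputs (in the order 421, 953 and 960, as throughout), and 16 of 18 rod genes were listed for retina only. One library stood apart. Brain input 960 correlated with the other brain inputs at r = 0.893 and 0.895, against 0.995 between those, and its 81 cytosolic ribosomal protein genes summed to 46956 CPM against 15389 and 15762. The retina positives were also uneven, with 11 microglial genes summing to 302, 1113 and 1370 CPM and the pericyte gene Rgs5 at 289, 25.3 and 8.66 CPM. Beside single genes and gene lists, values without brain input 960 are given where leaving it out adds a call or moves a count or fold by over 1.5 times.

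Of the 11618 genes, 1713 (14.7%) differed in enrichment at an adjusted p under 0.05 (edgeR quasi-likelihood test, Benjamini-Hochberg over all genes). Enrichment was higher in retina for 584 genes (5.03%) and lower for 1129 (9.72%), and of these 394 (3.39%) and 659 (5.67%) differed by at least 2-fold. The median difference of all genes was -0.03. With RLE scaling factors in place of TMM it was 0.13 and 926 genes were higher and 715 lower, so the balance between directions depends on the scaling. Without brain input 960, 2649 genes (22.8%) were higher and 1819 (15.7%) lower, and 1622 of the 1713 calls were kept. With the sample number as a block within each tissue 371 genes were higher and 821 lower. When each of the 12 libraries was left out in turn, 205 of the 584 higher calls and 595 of the 1129 lower calls were kept every time.

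**Figure D1:**
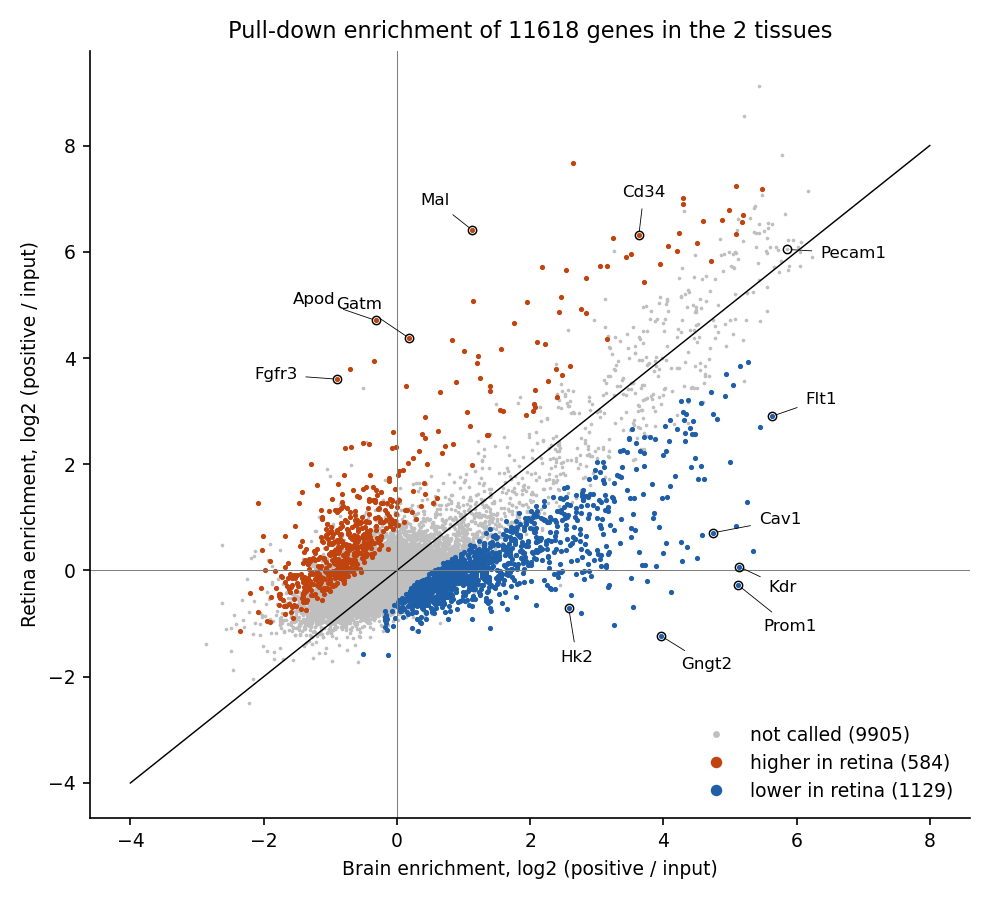
Enrichment of each of 11618 genes in brain (horizontal axis) and retina (vertical axis), as log2 of positive over input fitted on 3 libraries per group. The diagonal marks equal enrichment; coloured points are the 584 genes called higher and the 1129 called lower in retina, and Mal and Kdr lie far from the diagonal on opposite sides.

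The split into parts showed where the differences lay. A gene was termed input-led when at least 66.7% of its difference came from the input part, positive-led when at most 33.3% did, and shared in between. This share has no bounds, because the 2 parts can have the same sign. Among higher genes both parts were called higher in 121 and lower in 201, and among lower genes in 189 and 104. An input-led gene can thus still differ in the pulled-down RNA, as Hk2 did (input part 6.34, positive part 3.06). Among genes higher in retina 312 were input-led, 59 shared and 213 positive-led. Among genes lower in retina the counts were 479, 203 and 447. Without brain input 960 the order turned in both directions, with 1121 input-led against 1293 positive-led higher genes and 698 against 843 lower genes. With all libraries, the input-led share was 43.6% of the 660 called genes under 1 on the log2 scale and 43.6% of the 847 genes from 1 to 2. It was 58.1% of the 155 genes from 2 to 3 and 86.3% of the 51 genes at 3 or more. These shares by size were not computed without brain input 960. Of the 15 highest and the 15 lowest differences among genes averaging at least 10 CPM with non-overlapping own-sample ratios, 13 and 13 were input-led. A gene was listed for a tissue only where all its input or all its positive libraries reached 50 raw counts. Mal, Apod, Fgfr3, Gatm, Pllp, Ntn1, Ccnd2 and Itgb4, named below as higher, were listed for retina through the positives alone. Among lower genes Kdr, Susd3, St6galnac2, Rad54b and Tbx3 were listed for brain in that way. The listing thus favours input-led extremes, to an extent that was not tested. For comparison, own-sample ratios did not overlap between tissues in 34.3% of all genes tested.

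**Figure D2:**
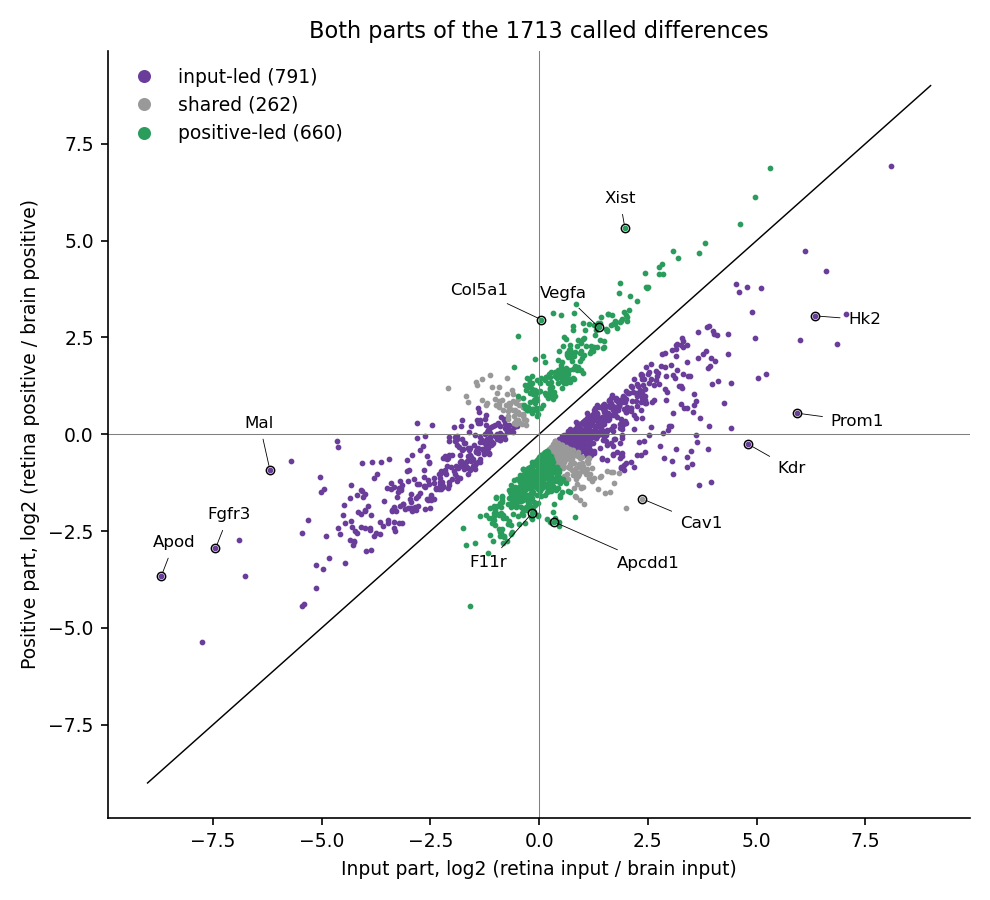
Input part (retina input over brain input, horizontal axis) and positive part (retina positive over brain positive, vertical axis) of the 1713 called genes, both log2. Distance from the diagonal is the enrichment difference; 791 genes are input-led, 262 shared and 660 positive-led, and the points farthest from the diagonal lie mostly to the left and right.

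**Figure D3:**
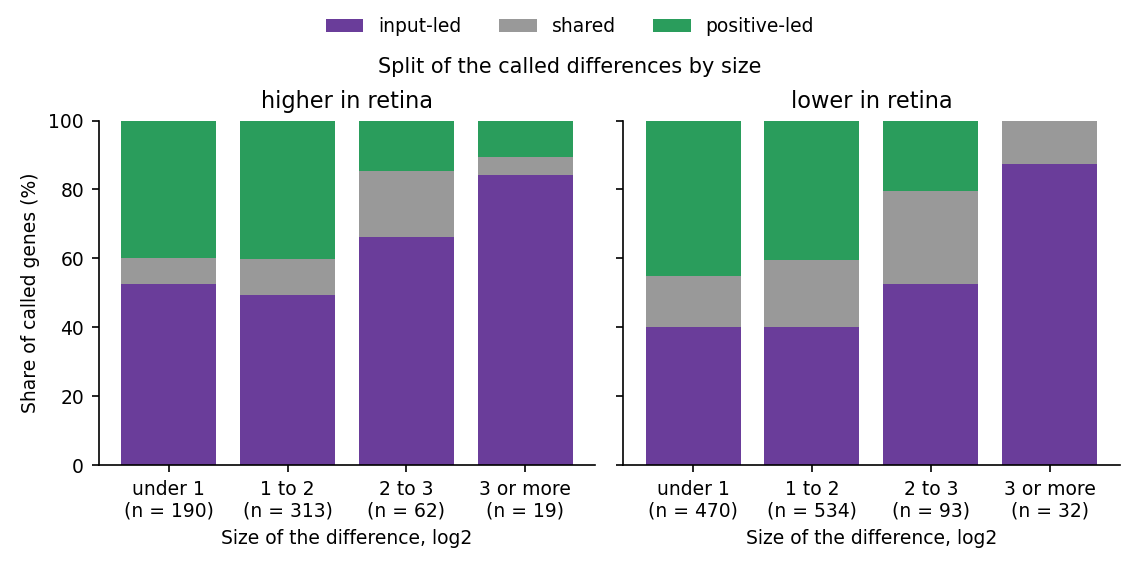
Share of called genes that were input-led, shared or positive-led (vertical axis, percent) by the size of the difference on the log2 scale (horizontal axis), for genes higher and lower in retina, with the number of genes under each bar. Input-led genes make up 84.2% of the 19 higher and 87.5% of the 32 lower genes in the class of 3 or more.

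The highest difference among genes averaging at least 10 CPM with non-overlapping own-sample ratios belonged to Mal (chromosome 2, 127633226 to 127656695, minus strand, mm10). Mal encodes a lipid-raft protein of myelin and of polarised membranes. Its CPM was 3.39, 5.04 and 2.89 in retina inputs and 354, 355 and 261 in retina positives. In brain it was 290, 293 and 249 in inputs and 559, 693 and 570 in positives. The retina inputs were the low ones, and the other 3 groups lay between 249 and 693. Enrichment was 6.41 ± 0.25 in retina and 1.13 ± 0.20 in brain, a difference of 5.28 ± 0.30 (adjusted p = 2.85e-06) made of an input part of -6.19 and a positive part of -0.91.

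Apod (chromosome 16, 31296192 to 31314596, minus strand), which encodes apolipoprotein D, a lipid carrier made by oligodendrocytes among other cells, also had its lowest levels in the retina inputs. Retina inputs held 4, 19 and 18 reads (0.283, 0.957 and 1.04 CPM) and retina positives 13.3, 18.1 and 30.1 CPM. Brain inputs had 290, 271 and 420 CPM and brain positives 219, 208 and 361. Brain was above retina in both fractions without overlap. Apod was not called in the brain pull-down (-0.31 ± 0.33, adjusted p = 0.459), it was raised by the retina pull-down (4.71 ± 0.45), and the difference was 5.02 ± 0.56 (adjusted p = 1.67e-04). Its retina inputs rest on few reads, which limits the precision of that ratio.

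Across the list of myelin genes, 5 of 12 measured members were higher in retina and none lower, beside 5.03% of all genes for higher. Without brain input 960 the count was 11, beside 22.8% of all genes, and without brain positive 960 it was 9, beside 573 of the 11618 genes. The median difference was 1.29, and all 5 called members were input-led. Another 12 members were listed for brain only. Mal (48, 100 and 50 reads in retina inputs) and Apod were listed for retina through the positives alone. Members under 50 reads in a retina input were thus measured only where every retina positive held at least 50, which favours higher calls. Tspan2, a tetraspanin of oligodendrocytes, went in opposite directions, 0.96 ± 0.25 in retina and -1.13 ± 0.23 in brain. Mbp, myelin basic protein, did not pass (1.12 ± 0.40, adjusted p = 0.08), and was 1.31 (adjusted p = 0.0221) without brain input 960 and 1.59 (adjusted p = 0.00471) without brain positive 960. Gatm and Pllp were among the 15 highest. Gatm, the first enzyme of creatine synthesis, had 1.91, 2.17 and 1.67 CPM in retina inputs, 45.7, 42 and 32.4 in retina positives, 191, 203 and 302 in brain inputs and 245, 300 and 246 in brain positives. The difference was 4.19 ± 0.30 (adjusted p = 8.74e-06). Pllp, plasmolipin, differed by 3.51 ± 0.29 (adjusted p = 2.82e-05). Summed over 12 measured members, myelin genes held 928 to 998 CPM in retina inputs, 879 to 1078 in retina positives, 6950 to 8687 in brain inputs and 2733 to 4482 in brain positives. The part of myelin RNA in these differences was not tested.

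Of 11 measured astrocyte genes 2 were higher and none lower, beside 5.03% and 9.72% of all genes (median 0.35). Without brain input 960, 5 were higher, beside 22.8% of all genes. Another 4 members were listed for brain only. The called members Fgfr3 and Gja1 had a retina input under 50 reads. They were listed for retina through the positives alone, which favours higher calls. Fgfr3 (chromosome 5, 33721724 to 33737068, plus strand), a fibroblast growth factor receptor of astrocytes, held only 8, 10 and 25 reads in retina inputs (0.565, 0.504 and 1.44 CPM). It had 13.6, 11.9 and 5.8 CPM in retina positives, 159, 166 and 115 in brain inputs and 64.7, 81.3 and 91.6 in brain positives. It was raised by the retina pull-down (3.60 ± 0.42) and lowered by the brain pull-down (-0.89 ± 0.30), a difference of 4.49 ± 0.51 (adjusted p = 2.22e-04). Gja1, the gap junction protein connexin 43, differed by 3.09 ± 0.66 (adjusted p = 0.0108), and all 3 retina inputs were below the retina positives (2.68, 3.93 and 9.7 against 47, 19.2 and 15.9 CPM). Gfap, the intermediate filament of astrocytes, was not called (0.92 ± 0.37, adjusted p = 0.122), with a value of 1.28 (adjusted p = 0.011) without brain input 960. Of 4 measured genes of oligodendrocyte precursors, Bcan (1.76 ± 0.42, adjusted p = 0.0162) and Pdgfra (1.78 ± 0.39, adjusted p = 0.0121) were higher, both input-led, beside 5.03% of all genes. Without brain input 960, 3 of these precursor genes were higher, beside 22.8% of all genes.

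**Figure D4:**
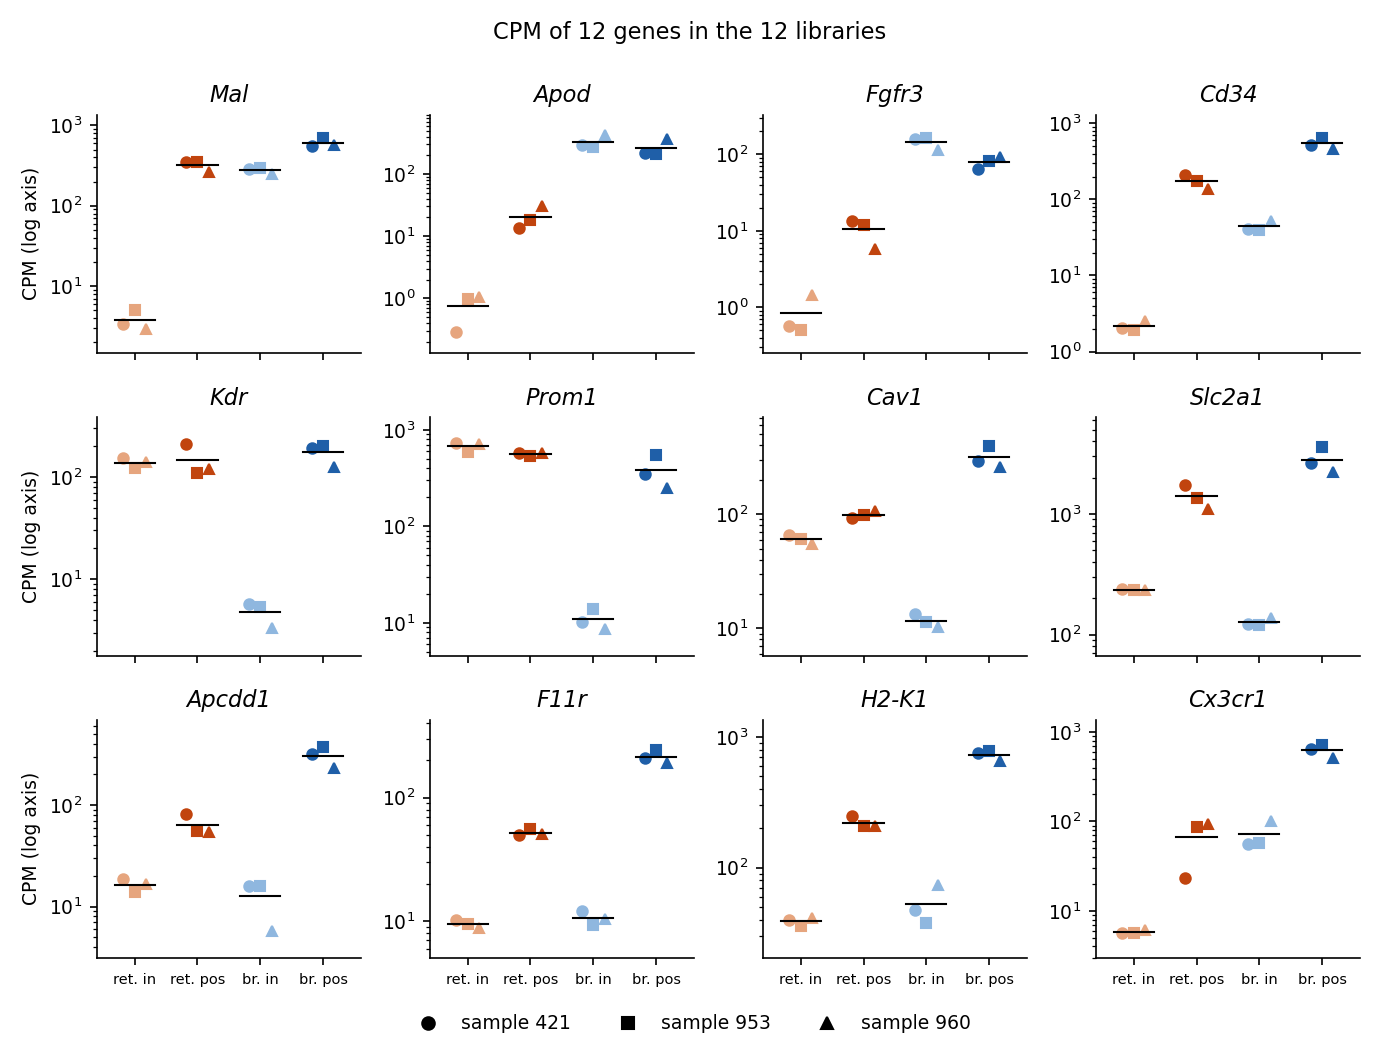
CPM (vertical axis, log scale) of 12 genes in retina input, retina positive, brain input and brain positive libraries, 3 per group; symbols mark the sample number and lines the group mean. For Mal, Apod and Fgfr3 the retina inputs are lowest, for Kdr and Prom1 the brain inputs are lowest, and for F11r and H2-K1 the inputs are similar and the positives differ.

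In the opposite direction stood Kdr (chromosome 5, 75933270 to 75978428, minus strand), which encodes VEGF receptor 2, the main signalling receptor of endothelium for VEGF-A. The brain pull-down raised it from 5.69, 5.37 and 3.3 to 194, 203 and 126 CPM. Retina had 155, 122 and 140 CPM in inputs and 210, 109 and 119 in positives, which overlapped. The positive fractions of the tissues overlapped as well, and only the brain inputs were low. Enrichment was 0.07 ± 0.27 in retina (adjusted p = 0.874) and 5.14 ± 0.32 in brain, a difference of -5.07 ± 0.41 (adjusted p = 2.00e-05) with an input part of 4.81 and a positive part of -0.26 (adjusted p = 0.413).

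Among 9 measured genes of VEGF signalling, 3 were lower and 2 higher, beside 9.72% and 5.03% of all genes, with a median of -0.45. Without brain input 960 the counts were 4 and 2, beside 15.7% and 22.8% of all genes. Flt1, a VEGF receptor that also acts as a decoy, was enriched in both tissues. Its difference was -2.73 ± 0.48 (adjusted p = 0.0038), from 73, 65.4 and 94.7 CPM in retina inputs and 21.9, 21 and 15.5 in brain inputs, while the positives overlapped at 942, 473 and 329 and 1061, 1148 and 705. Flt4, VEGF receptor 3, differed by -1.79 ± 0.40 (adjusted p = 0.0125). The ligand Vegfa was the one positive-led member called higher (1.40 ± 0.30, adjusted p = 0.0106), since the brain pull-down lowered it from 88.8, 100 and 67.9 to 30.5, 35.8 and 49.7 CPM while retina positives (305, 276 and 207) overlapped retina inputs (220, 207 and 238). The semaphorin receptor Plxnd1 was higher (1.54 ± 0.34, adjusted p = 0.0119) and input-led. The coreceptor Nrp1 did not pass (0.24 ± 0.36, adjusted p = 0.717).

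Pan-endothelial genes were enriched in both tissues, with medians of 6.01 in retina and 5.16 in brain, and their differences went both ways. Of 26 measured members 5 were higher and 4 lower, beside 5.03% and 9.72% of all genes (median difference 0.76). Without brain input 960, 8 were higher, beside 22.8% of all genes. Of the 5 higher calls 2, Cd34 and Fli1, and all 4 lower calls were kept each time a library was left out. Cd34, a surface sialomucin of endothelium and progenitors, had 2.05, 1.91 and 2.54 CPM in retina inputs and 207, 175 and 138 in positives, against 40.7, 39.8 and 51.7 and 525, 651 and 460 in brain. Retina was below brain in both fractions, more so in the inputs, and the difference was 2.68 ± 0.29 (adjusted p = 1.34e-04). The ETS factor Fli1 was likewise higher (1.73 ± 0.33, adjusted p = 0.00581), with 8, 10 and 7 reads in the retina inputs. Esam (-1.55 ± 0.34, adjusted p = 0.0117) and Rasip1 (-1.32 ± 0.29, adjusted p = 0.0115), an adhesion molecule and a vascular Ras-interacting protein, were lower and positive-led. Pecam1 was not called (0.19 ± 0.30, adjusted p = 0.73), with 415, 353 and 278 CPM in retina positives and 813, 937 and 624 in brain positives. Cdh5 (1.48 ± 0.51, adjusted p = 0.0719), Cldn5 (1.50 ± 0.59, adjusted p = 0.111) and Tek (0.88 ± 0.42, adjusted p = 0.188), which encode VE-cadherin, claudin-5 and the angiopoietin receptor, did not pass either. All 3 values passed without brain input 960, at 1.94 (adjusted p = 0.00787), 0.78 (adjusted p = 0.0159) and 1.24 (adjusted p = 0.0353). Cdh5 also passed without retina positive 960 (1.74, adjusted p = 0.0299) and Cldn5 without brain input 421 (1.83, adjusted p = 0.0445). Brain input 960 held 88.2 CPM of Cldn5 against 22.8 and 24.1 in the other brain inputs.

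Plvap, the diaphragm protein of fenestrated endothelium and of leaky vessels, gave no call (-0.09 ± 0.33, adjusted p = 0.895). It was not called in either tissue, at 0.20 ± 0.24 in retina and 0.29 ± 0.23 in brain. Igfbp3, a secreted binding protein of insulin-like growth factors, was higher in retina (2.90 ± 0.40, adjusted p = 7.45e-04). The GTPase genes of the Gimap cluster, whose similar sequences may share reads, parted: Gimap6 was higher (1.69 ± 0.32, adjusted p = 0.00575) and Gimap1 lower (-1.64 ± 0.36, adjusted p = 0.0124). The guidance protein netrin-1 gene Ntn1 (3.92 ± 0.41, adjusted p = 1.20e-04), the cyclin gene Ccnd2 (3.34 ± 0.36, adjusted p = 1.48e-04) and the integrin gene Itgb4 (4.49 ± 0.48, adjusted p = 1.34e-04) were among the 15 highest. All 3 were input-led, and their brain inputs were above every retina input.

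Caveola genes showed the 2 kinds of split side by side. Of 6 measured members 3 were lower and 2 higher, beside 9.72% and 5.03% of all genes (median -0.97). Cav1 (chromosome 6, 17306335 to 17341328, plus strand), the scaffold protein of caveolae, had 66.4, 60.5 and 55.4 CPM in retina inputs and 93.5, 97.9 and 106 in retina positives, against 13.3, 11.4 and 10.4 and 292, 395 and 259 in brain. Brain was lower in the input and higher in the positive fraction, without overlap in either, and the difference of -4.04 ± 0.25 (adjusted p = 3.44e-06) was shared between parts (2.37 and -1.67). Its partner Cav2 (-1.75 ± 0.21, adjusted p = 3.70e-04) and the membrane ATPase Ehd2 (-1.53 ± 0.27, adjusted p = 0.00401) were lower and positive-led. The cavin genes did not follow. Prkcdbp, which encodes cavin-3, was higher (1.08 ± 0.24, adjusted p = 0.0119), and Ptrf, which encodes cavin-1, was not called (-0.40 ± 0.34, adjusted p = 0.473). Sdpr, which encodes cavin-2, was called higher (1.80 ± 0.45, adjusted p = 0.021), but its adjusted p was 0.0641 without retina input 953 and 0.0506 without brain positive 421.

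Of 22 measured barrier transporter genes, 6 were lower and 1 higher, beside 9.72% and 5.03% of all genes, with a median of -0.54. Without brain input 960 the counts were 6 and 6, beside 15.7% and 22.8% of all genes. Slc6a6, the taurine transporter, had 2165, 2136 and 2132 CPM in retina inputs and 1956, 1732 and 1621 in retina positives, against 139, 134 and 61.3 and 1162, 1117 and 780 in brain. Retina inputs were the highest group, and the difference was -3.46 ± 0.39 (adjusted p = 1.74e-04), input-led. Slc2a1, the glucose transporter GLUT1, was enriched in both tissues. It rose from 237, 236 and 233 to 1746, 1349 and 1105 CPM in retina and from 122, 119 and 137 to 2621, 3572 and 2236 in brain, and the difference of -1.90 ± 0.29 (adjusted p = 0.00156) was shared between parts. Slc3a2, the heavy chain of amino acid transporters, was lower and positive-led (-1.08 ± 0.21, adjusted p = 0.00624), and the monocarboxylate transporter gene Slc16a4 was lower and shared (-1.64 ± 0.35, adjusted p = 0.00999). The lipid transporter gene Mfsd2a was the higher member (2.16 ± 0.53, adjusted p = 0.0199), with adjusted p of 0.058 without retina input 421, 0.0527 without retina input 953 and 0.0512 without brain positive 421. The efflux pump gene Abcb1a did not pass (1.34 ± 0.48, adjusted p = 0.0831), and was 1.70 (adjusted p = 0.0199) without brain input 960 and 1.63 (adjusted p = 0.022) without retina positive 960.

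Of 17 measured genes of the barrier Wnt/beta-catenin programme, 7 were lower and 2 higher, beside 9.72% and 5.03% of all genes (median -0.58, median input part 0.23, median positive part -1.17). Of the 7 lower calls 3 were kept each time a library was left out, and with RLE factors 4 members were lower, beside 715 of the 11618 genes. Apcdd1, a Wnt target that dampens the signal, had 18.5, 14 and 16.9 CPM in retina inputs and 16, 16.1 and 5.74 in brain inputs. The positives were 82.1, 55.7 and 54.6 CPM in retina and 314, 375 and 230 in brain, so brain was higher without overlap. The difference was -2.60 ± 0.45 (adjusted p = 0.00363), positive-led. Nkd1, another negative-feedback target, was 30, 29.2 and 30.6 and 26, 23.4 and 19.8 CPM in the inputs of retina and brain and 44, 35.2 and 34.3 and 179, 207 and 126 in the positives. Its difference was -2.54 ± 0.26 (adjusted p = 1.12e-04), also positive-led, and it was not called in the retina pull-down (0.34 ± 0.18, adjusted p = 0.204). Gpr124, a coreceptor for Wnt7 ligands, was lower and input-led (-2.25 ± 0.39, adjusted p = 0.00336). Higher members were the Wnt-induced receptor gene Tnfrsf19 (2.61 ± 0.45, adjusted p = 0.00336) and the transcription factor gene Lef1 (1.82 ± 0.48, adjusted p = 0.0269), both input-led. Lef1 missed the threshold without retina input 953 (adjusted p = 0.078), retina input 960 (0.0765), brain positive 953 (0.0569) or brain positive 960 (0.0507). Ctnnb1, beta-catenin itself, did not pass (-0.45 ± 0.26, adjusted p = 0.267).

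Of 10 measured tight junction genes 3 were lower and 1 higher, beside 9.72% and 5.03% of all genes. The counts were 5 and 3 without brain input 960, beside 15.7% and 22.8% of all genes. F11r, which encodes junctional adhesion molecule A, had 10.2, 9.57 and 8.89 CPM in retina inputs and 12, 9.33 and 10.5 in brain inputs, which overlapped. Its positives were 49.7, 55.7 and 50.8 CPM in retina and 207, 241 and 189 in brain, without overlap. The difference of -1.87 ± 0.20 (adjusted p = 1.34e-04) was thus positive-led. Jam2, which encodes junctional adhesion molecule B, was lower but input-led (-2.02 ± 0.25, adjusted p = 4.67e-04), with 184, 193 and 196 CPM in retina inputs against 65.8, 66.6 and 42.3 in brain inputs. The scaffold gene Tjp1 was not called (-1.43 ± 0.45, adjusted p = 0.0525), and was -0.90 (adjusted p = 0.0246) without brain input 960. Tjp1 also passed without retina positive 421 (-1.67, adjusted p = 0.0409), brain input 421 (-1.61, adjusted p = 0.0482) or brain input 953 (-1.64, adjusted p = 0.0436). The cingulin gene Cgn was the higher member (1.16 ± 0.29, adjusted p = 0.02), with adjusted p of 0.055 without retina input 953 and 0.0548 without brain positive 953.

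The lowest difference among genes averaging at least 10 CPM with non-overlapping own-sample ratios belonged to Prom1 (chromosome 5, 43993622 to 44101736, minus strand). Prom1 encodes prominin-1, a membrane protein needed for photoreceptor discs. It had 726, 594 and 715 CPM in retina inputs and 573, 530 and 580 in retina positives. In brain it was 10.3, 14 and 8.55 CPM in inputs and 347, 555 and 253 in positives. Only the brain inputs were low, and the difference was -5.39 ± 0.38 (adjusted p = 8.60e-06). Gngt2, a G-protein gamma subunit of cones that microglia also express, fell in the retina pull-down from 62.5, 58 and 51.7 to 22.4, 22.3 and 28.6 CPM and rose in the brain pull-down from 2.1, 2.06 and 8.55 to 53.9, 63.3 and 56.8. The difference was -5.19 ± 0.58 (adjusted p = 1.86e-04), and the retina inputs and brain positives overlapped. It was -5.82 without brain input 960. Rbpms, an RNA-binding protein gene that marks retinal ganglion cells, differed by -3.82 ± 0.27 (adjusted p = 8.60e-06). Hk2, a hexokinase that photoreceptors use, had 712, 813 and 734 CPM in retina inputs against 9.28, 7.39 and 11.5 in brain inputs, and differed by -3.29 ± 0.25 (adjusted p = 1.06e-05). Of 17 measured glycolytic genes 3 were lower and none higher, beside 9.72% and 5.03% of all genes. Hk2 was the one whose lower call held each time a library was left out. The lower count was 6 without retina positive 960 and 1 with the sample number as a block within tissue, beside 1238 and 821 of the 11618 genes. Without brain input 960, 4 were lower and 3 higher, beside 15.7% and 22.8% of all genes.

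Further members of the 15 lowest were the surface protein gene Susd3 (-4.51 ± 0.30, adjusted p = 5.87e-06), the sialyltransferase gene St6galnac2 (-4.25 ± 0.20, adjusted p = 5.77e-07), the DNA repair gene Rad54b (-4.22 ± 0.27, adjusted p = 3.88e-06) and the T-box factor gene Tbx3 (-4.11 ± 0.43, adjusted p = 1.32e-04). Podxl, which encodes the sialomucin podocalyxin of endothelium, had 223, 290 and 273 CPM in retina inputs and 810, 560 and 541 in retina positives, against 25.3, 21.5 and 28.2 and 871, 1051 and 925 in brain. Both tissues were enriched (1.28 ± 0.19 and 5.25 ± 0.22), and the difference was -3.97 ± 0.27 (adjusted p = 7.45e-06). Of 15 measured arterial genes 2 were lower and 2 higher, beside 9.72% and 5.03% of all genes. Without brain input 960, 3 were higher, beside 22.8% of all genes. Alpl, an alkaline phosphatase (-3.58 ± 0.32, adjusted p = 5.03e-05), and Jag1, a Notch ligand (-2.47 ± 0.31, adjusted p = 4.70e-04), were the lower members. The netrin receptor gene Unc5b (1.30 ± 0.36, adjusted p = 0.0315) and the matrix Gla protein gene Mgp (3.02 ± 0.88, adjusted p = 0.0396) were the higher ones. Mgp was 1.79 (adjusted p = 0.00424) without brain input 960, and its adjusted p was 0.0566 to 0.0979 without any 1 of the retina inputs, the brain positives or retina positives 953 and 960. Unc5b had an adjusted p of 0.0503 to 0.0829 without any 1 of the retina inputs, the brain positives or brain inputs 421 and 953, and of 0.0753 with the sample number as a block within tissue. Jag1 was 252, 237 and 235 CPM in retina inputs and 7.88, 8.99 and 6.11 in brain inputs. The TGF-beta receptor gene Tgfbr1 was lower and positive-led (-2.33 ± 0.31, adjusted p = 6.76e-04), with 42.8, 59.6 and 65.5 CPM in retina positives against 242, 257 and 173 in brain positives. Of 12 measured Müller glia genes 3 were lower and 1 higher, beside 9.72% and 5.03% of all genes. The lower members were the intermediate filament gene Vim (-1.82 ± 0.24, adjusted p = 6.84e-04), the carbonic anhydrase gene Car14 (-1.70 ± 0.30, adjusted p = 0.00431) and the glutamine synthetase gene Glul (-1.0 ± 0.21, adjusted p = 0.0103). The G-protein-coupled receptor gene Gpr37 was the higher one (1.23 ± 0.35, adjusted p = 0.0378). Its adjusted p was 0.0571 to 0.101 when any 1 library other than retina positive 421, brain input 960 or brain positive 960 was left out. It was 0.0519 with the sample number as a block within tissue. Without brain input 960, 2 members were higher, beside 22.8% of all genes.

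Genes of MHC class I presentation, which display peptides to T cells, were lower in 5 of 11 measured members and higher in none, beside 9.72% of all genes for lower, with a median of -1.13 made of a median input part of -0.52 and a median positive part of -1.72. Of the 5 called members 4 were positive-led. Lower members numbered 8 without brain input 960, beside 15.7% of all genes. Of the 5 calls 3 were kept each time a library was left out. H2-K1, a classical heavy chain, was enriched in both tissues (2.51 ± 0.22 in retina and 3.79 ± 0.23 in brain). Its positives were 249, 207 and 208 CPM in retina and 756, 780 and 654 in brain, and its inputs 40, 35.5 and 41.4 and 47.7, 37.6 and 73.3. The inputs overlapped and the positives did not, and the difference was -1.29 ± 0.30 (adjusted p = 0.0146). H2-D1, a close paralog whose reads may be shared with H2-K1, differed by -1.13 ± 0.24 (adjusted p = 0.0114). Tapbp, the tapasin chaperone of peptide loading, was lower (-1.78 ± 0.22, adjusted p = 3.51e-04). H2-Q7 was lower (-1.36 ± 0.33, adjusted p = 0.0182), with adjusted p between 0.0514 and 0.0634 without retina input 421, retina input 953 or brain positive 421. B2m, the light chain, did not pass (0.49 ± 0.40, adjusted p = 0.449).

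Of 12 measured interferon response genes 3 were lower, beside 9.72% of all genes, and 2 to 4 were lower when 1 library was left out. The calls included the regulator Irf7 (-2.49 ± 0.52, adjusted p = 0.00924) and Oasl2 (-1.84 ± 0.41, adjusted p = 0.0124). Immediate early genes, which respond within minutes to stimulation, were lower in 5 of 14 and higher in none, beside 9.72% of all genes for lower, with a median of -0.12. When 1 library was left out 3 to 6 were lower. Ier3 had 53.1, 49.2 and 47 CPM in retina inputs and 51.6, 58 and 75.3 in retina positives, against 10.1, 9.07 and 22.8 and 89.2, 111 and 130 in brain. The retina fractions overlapped and the brain fractions did not, for a difference of -2.71 ± 0.42 (adjusted p = 0.00188). Atf3, a stress-induced transcription factor (-2.42 ± 0.41, adjusted p = 0.00335), was shared between parts, and Zfp36, which promotes decay of inflammatory mRNAs (-2.15 ± 0.26, adjusted p = 3.15e-04), was positive-led. Fos did not pass (-0.01 ± 0.20, adjusted p = 0.976).

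**Figure D5:**
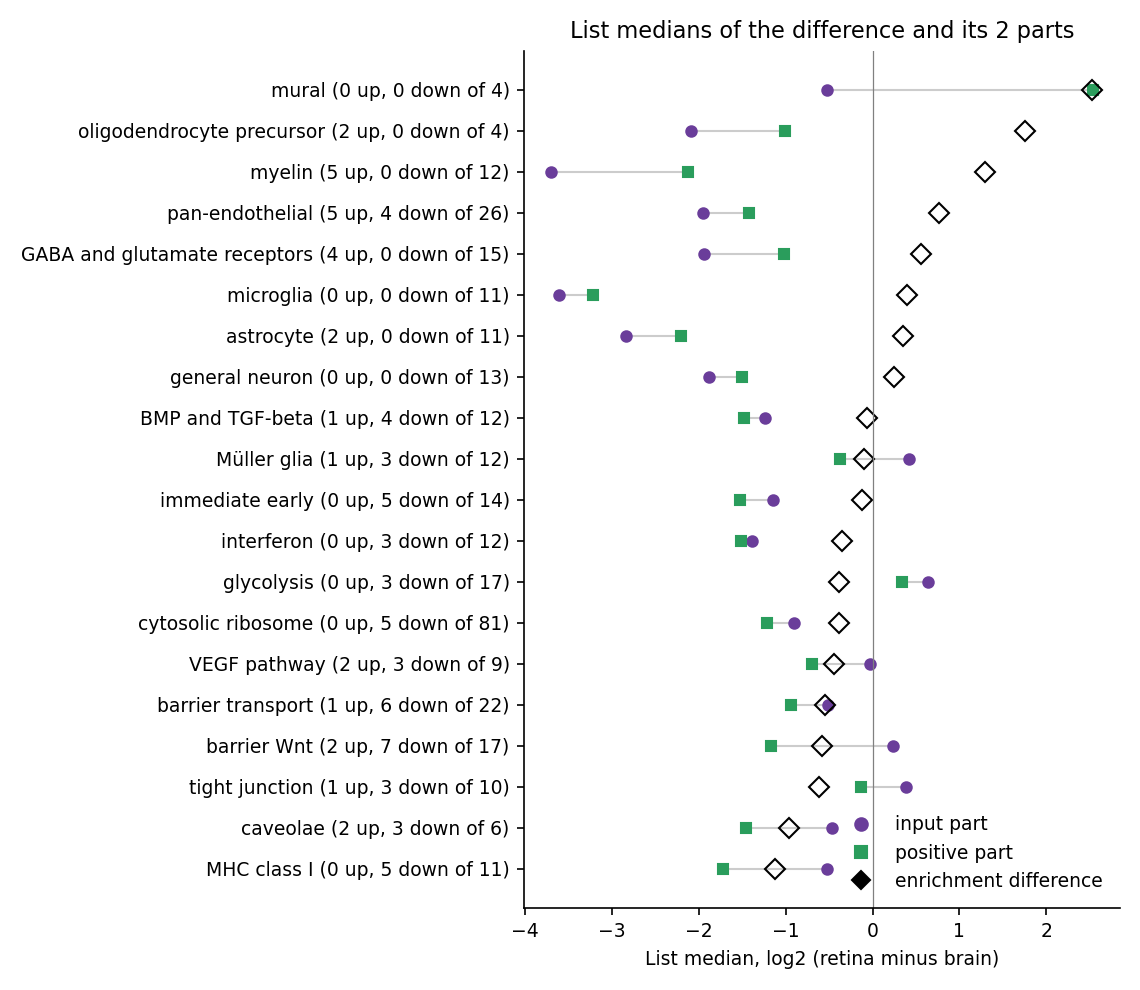
Median over the measured members of 20 gene lists of the enrichment difference (open diamonds), the input part (circles) and the positive part (squares), on the log2 scale (horizontal axis), with the number of members called higher (up) and lower (down) in retina. Myelin genes have a median input part of -3.70 and MHC class I genes a median positive part of -1.72.

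Microglial genes, which a Tie2-driven pull-down can take up, gave no call in either direction among 11 measured members. None had an unadjusted p under 0.05, and none was called with DESeq2. They were enriched in both tissues, with medians of 3.95 in retina and 3.57 in brain. Cx3cr1, the fractalkine receptor, had 5.65, 5.69 and 6.12 CPM in retina inputs and 23.2, 85.8 and 93.6 in retina positives, against 56.2, 56.7 and 102 and 649, 721 and 516 in brain. Retina positive 421 was far below the other retina positives, and the difference was 0.40 ± 0.57 (adjusted p = 0.702). Csf1r, the receptor that microglia need to survive, differed by -0.54 ± 0.59 (adjusted p = 0.588). The standard errors over the 11 genes were 0.56 to 0.71, and a call needs a difference of several standard errors. The differences ran from -0.54 to 1.27 without a call, so true differences well above 0.71 may have gone undetected.

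Mural and collagen genes were uneven among the retina positives. The 4 measured mural genes, which mark pericytes and smooth muscle, had a median difference of 2.52 and no call. Rgs5 differed by 3.95 ± 1.40 (adjusted p = 0.08), Notch3 by 2.87 ± 0.97 (adjusted p = 0.0678) and Pdgfrb by 2.17 ± 0.82 (adjusted p = 0.0989). In each, retina positive 421 was the high library, for Pdgfrb 62.7, 10.1 and 7.95 CPM. All 3 genes passed without brain input 960 (4.61, 3.39 and 2.32) and without retina positive 960 (4.50, 3.33 and 2.62), and Notch3 also without retina positive 953 (3.30, adjusted p = 0.0463). Other alternatives lowered them. With the sample number as a block within tissue Rgs5, Notch3 and Pdgfrb were 2.11, 2.11 and 1.56 (adjusted p = 0.378, 0.134 and 0.182). Their lowest values over all alternatives were 1.14, 1.13 and 0.59. Vtn, vitronectin, which photoreceptors also express, was not called (0.50 ± 0.20, adjusted p = 0.124) and was 0.69 (adjusted p = 0.012) without brain input 960. The collagen gene Col6a1 was called higher (2.59 ± 0.65, adjusted p = 0.021) at 230, 111 and 52.7 CPM in retina positives and 14.2, 16.8 and 15.2 in brain positives. Its adjusted p was 0.0532 to 0.0584 without retina input 421, retina input 953, brain positive 421 or brain positive 953. Col5a1, a fibrillar collagen, was positive-led (2.91 ± 0.63, adjusted p = 0.011). The X-inactivation transcript Xist was also positive-led (3.35 ± 0.63, adjusted p = 0.00563), at 4548, 3776 and 1148 CPM in retina positives and 68.3, 63.2 and 105 in brain positives. The inputs were 1463, 1213 and 1266 CPM in retina and 350, 470 and 183 in brain, and retina positive 960 lay below every retina input while the other retina positives lay above.

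None of 13 general neuronal genes was called and none had an unadjusted p under 0.05. DESeq2 called 1, beside 2554 of the 11618 genes, and 2 were higher without brain input 960, beside 22.8% of all genes. Snap25, a synaptic fusion protein gene, was 0.27 ± 0.29 (adjusted p = 0.575). Of 15 measured GABA and glutamate receptor subunits 4 were higher and none lower (median 0.55), beside 5.03% of all genes for higher. The count was 12 without brain input 960, beside 22.8% of all genes. It was 2 with the sample number as a block within tissue, beside 371 of the 11618 genes. Gria2, an AMPA receptor subunit, had 532, 562 and 928 CPM in brain inputs and 230, 198 and 307 in brain positives, against 158, 152 and 169 and 268, 233 and 156 in retina. It was lowered in brain (-1.46 ± 0.26) and not called in retina (0.45 ± 0.25, adjusted p = 0.21), a difference of 1.91 ± 0.36 (adjusted p = 0.00548). Gabra4, a GABA-A receptor subunit, differed by 1.46 ± 0.32 (adjusted p = 0.012).

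Cytosolic ribosomal protein genes depended on 1 library. With all 12 libraries 5 of 81 were lower, a smaller share than the 9.72% of all genes, and none higher (median -0.39), and none of the 5 calls was kept each time a library was left out. With the sample number as a block within tissue 1 was lower and with RLE factors none was. Without brain input 960, 78 were lower, beside 15.7% of all genes. Rpl10a, the gene whose protein carries the tag and whose reads may include the transgene, had 125, 133 and 423 CPM in brain inputs and 654, 722 and 554 in brain positives, against 228, 215 and 208 and 416, 374 and 373 in retina. Its difference was -0.67 ± 0.52 (adjusted p = 0.426) and, without that library, -1.28 (adjusted p = 3.32e-04).

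Each gene was also called within its own tissue, where the pull-down changed 2965 genes (25.5%) in retina and 5387 (46.4%) in brain. Of the 1129 lower genes, 716 (63.4%) were enriched in brain and not called in retina, and 225 (19.9%) were enriched in both. Of these 225, 156 were positive-led and 27 input-led. Of the 584 higher genes, 302 (51.7%) were depleted in brain and not called in retina, and 68 (11.6%) were enriched in both, of which 67 were input-led. A gene not called in one tissue is not shown to lack enrichment there. For 39 genes the retina pull-down raised and the brain pull-down lowered the transcript, and for 60 genes the reverse held. The former included Fgfr3, Tspan2, Col5a1 and the sorting nexin gene Snx22 (3.29 ± 0.63, adjusted p = 0.00575), and the latter Gngt2, Hk2, Rad54b, the matrix gene Egflam (-3.57 ± 0.38, adjusted p = 1.34e-04) and the endosomal gene Plekhf2 (-2.75 ± 0.25, adjusted p = 5.15e-05). Egflam, which encodes pikachurin of the photoreceptor synapse, fell from 319, 314 and 307 to 164, 159 and 213 CPM in retina and rose from 5.05, 5.18 and 4.15 to 32.7, 47.4 and 18.9 in brain.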

How the data were processed

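RNA of 12 libraries (retina and brain, input and positive fraction, 3 samples each) was analysed, and 6 choroid libraries entered only 1 alternative. The deposited raw columns hold estimated counts per gene (91.5% and 90.2% of values are not whole within 0.001). Per the file headers, a gene was listed where every sample of at least 1 condition reached 50 raw counts. Reads were assigned to the mm10 build and DESeq was used, per the submitters' processing notes. Aligner and counter: not given in the sources used here. The authors also deposited log2 normalized values, used in 1 alternative.

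The estimated counts were rounded, joined on gene ID (11618 genes, none removed by filterByExpr), scaled by TMM and fitted with edgeR 4.0.16 in R 4.3.3 (quasi-likelihood F test, 1 coefficient per group, 8 residual degrees of freedom). P-values were adjusted over all genes by Benjamini-Hochberg, with calls at 0.05. Values after ± are standard errors from the F statistic. CPM are TMM-scaled, and own-sample ratios used a prior count of 2. DESeq2 1.42.0, limma 3.58.1, other scalings and filters, replicate blocks and left-out libraries were the alternatives.

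Input and positive of 1 number come from the same lysate, per the labels' protocol, so the numbers pair them within a tissue. Between fractions of 1 number, deviations from group means correlated at -0.000122 to 0.0802 in retina and 0.0199 to 0.179 in brain. Between fractions of different numbers the range was -0.121 to 0.0829 in retina and -0.116 to 0.0406 in brain. The labels do not say that a number marks 1 animal across tissues. The labels call the samples biological replicates.

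The tissue pair, the 39 gene lists and the tests were chosen with earlier results of these data known. Genes were named by rule: the 15 highest and 15 lowest differences among calls averaging 10 CPM or more whose own-sample ratios do not overlap; up to 4 called members of a list by adjusted p and its most abundant uncalled member; fixed markers; and the 5 highest and 5 lowest positive-led and shared genes. Flt4, Esam, Rasip1, Sdpr, Mfsd2a, Abcb1a, Lef1, Csf1r, Pdgfrb, Notch3, Egflam and Plekhf2 were named after their values were seen. Some genes that the rule names are not reported here. Coordinates are those of the files.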

Additional observations from a re-analysis of the deposited data

Results flagged for a closer look

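The comparison is itself a test of whether the pull-down effect differs between the tissues, so each of its calls is a difference between groups under the same contrast. By the edgeR quasi-likelihood test, 584 genes were enriched more in retina and 1129 less. Among the genes named above, some were called in opposite directions in the 2 tissues. Raised in retina and lowered in brain were Fgfr3 (difference 4.49, retina 3.60, brain -0.89), Snx22 (difference 3.29, retina 2.00, brain -1.29), Col5a1 (difference 2.91, retina 1.48, brain -1.43) and Tspan2 (difference 2.09, retina 0.96, brain -1.13). Lowered in retina and raised in brain were Gngt2 (difference -5.19, retina -1.23, brain 3.96), Rad54b (difference -4.22, retina -0.68, brain 3.54), Egflam (difference -3.57, retina -0.81, brain 2.76), Hk2 (difference -3.29, retina -0.71, brain 2.58) and Plekhf2 (difference -2.75, retina -0.66, brain 2.09). Dixon's test of a single outlying value was not run on these groups of 3 libraries.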

How the results depend on the processing

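Of the 78 called genes named here, none changed sign under the 27 alternatives, 44 kept their call in all of them and all 78 kept it without brain input 960. Leaving out 1 library ended 10 of the calls, and 12 uncalled genes passed without brain input 960. Counts of calls moved more than single genes. Higher genes numbered 1491 with DESeq2 and 926 with RLE factors. Lower genes numbered 715 with RLE factors, 679 with library size alone and 522 with all 18 libraries. At least 2-fold, 811, 629, 595 and 618 genes were higher with DESeq2, RLE factors, library size and all 18 libraries, and 355 lower with all 18. Calls made 34.1% higher genes in the reported fit against 58.4%, 56.4%, 54.6% and 62.6% under those settings. The median of all genes went from -0.03 to 0.13 with RLE factors, and the cause of these changes was not tested. The retina pull-down lowered 638 genes with library size and 676 with all 18 libraries. With library size the higher genes were positive-led in 349 cases, and the lower genes shared in 127 and positive-led in 213. With RLE factors 94 higher genes were shared and 381 positive-led, and 126 lower genes were shared and 262 positive-led. Cut-offs of 60% and 40% left 124 lower genes shared, and of 75% and 25%, 306. With the sample number as a block within tissue 371 genes were higher, and among named genes the block ended the calls of Unc5b and Gpr37 and added Cdh5 and Tjp1; the pairing changed no other named call. Without 1 library, or both fractions of 1 sample, 77 to 2649 genes were higher, 274 to 1831 lower, 76 to 1196 higher by at least 2-fold and 259 to 701 lower by at least 2-fold. The retina pull-down then raised 778 to 2620 genes and lowered 224 to 2248, and the brain pull-down raised 1850 to 3420 and lowered 1249 to 4154. The split without 1 library gave 135 to 1121 higher genes input-led, 27 to 235 shared and 68 to 1293 positive-led, and 287 to 698 lower genes input-led, 130 to 278 shared and 221 to 843 positive-led. The ends of these ranges came from leaving out brain input 960 or both fractions of brain 960, or libraries of samples numbered 953, except 701, which came without brain positive 960. The 3 samples per group and 1 uneven brain input limit every count above, and genes with few reads, such as Apod in retina inputs (4, 19 and 18 reads), have the least precise ratios. Genes outside the listed set were not analysed here.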
